A study of Homo sapiens with 151 samples.

Results

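Distal HOT regions are places over 2 kb from every annotated transcription start site (TSS) at which many DNA-associated proteins (DAPs) had a ChIP-seq peak. They were chosen by the peak lists themselves: the central 100 bp of every peak in the preferred lists were merged where they overlapped or touched, and regions with at least 31 lists, which is 25% of them, were called HOT for high occupancy target. Of 212005 merged regions 10504 were HOT, and 2520 of these had their middle over 2 kb from every TSS of the protein-coding and lncRNA genes of GENCODE 44. The distal share of HOT regions was 24% (95% Wilson interval 23.2 to 24.8, for counting error only).

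All lists come from HepG2, a human liver cancer cell line. In each experiment 1 DAP carried a FLAG tag and was pulled down with an antibody against FLAG, so the lists share 1 antibody, and what it captures apart from the tag was not measured here. Most lists are of transcription factors (TFs), with 15 non-TF DAPs among those the study preferred, and 6 further lists that it did not prefer took no part in choosing regions. Each DAP has 1 list and there are no treatments, doses or times, so chromosomes or lists serve as the units of the tests. There are 24 input libraries behind the lists, and the lists at a distal HOT region drew on a median of 19 of them (range 10 to 24).

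Enhancers lie far from the genes they act on, bind TFs through short motifs and recruit coactivators such as EP300, an acetyltransferase whose binding is widely used to find them. In liver cells forkhead, HNF4, C/EBP and AP-1 proteins are well known at such places. RE1 is the long motif of REST, a repressor that keeps neuronal genes off outside neurons and that works with corepressor complexes. HOT regions are of interest because many of the proteins found there have no motif in the DNA beneath their peak.

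Stretches of 200 bp around the middle of 6 regions are shown because they carry the contrast described here: very highly bound regions with RE1-like motifs, the most bound region without one, and regions of moderate list number near liver genes. They are the plus strand of hg38, in lower case, with capitals for matches to the 21 motifs searched, where RE1 was allowed up to 1 letter off.
SYT7 intron, chr11:61567290-61567489: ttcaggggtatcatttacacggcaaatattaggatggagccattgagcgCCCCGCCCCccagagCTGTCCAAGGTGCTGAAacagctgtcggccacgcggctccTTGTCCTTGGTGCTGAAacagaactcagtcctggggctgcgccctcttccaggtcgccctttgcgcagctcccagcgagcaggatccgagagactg
UNC5A intron, chr5:176837723-176837922: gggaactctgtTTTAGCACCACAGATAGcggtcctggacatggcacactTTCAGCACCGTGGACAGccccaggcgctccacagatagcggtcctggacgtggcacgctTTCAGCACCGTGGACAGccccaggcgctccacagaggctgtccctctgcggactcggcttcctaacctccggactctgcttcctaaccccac
ZFPM1 intron, chr16:88488181-88488380: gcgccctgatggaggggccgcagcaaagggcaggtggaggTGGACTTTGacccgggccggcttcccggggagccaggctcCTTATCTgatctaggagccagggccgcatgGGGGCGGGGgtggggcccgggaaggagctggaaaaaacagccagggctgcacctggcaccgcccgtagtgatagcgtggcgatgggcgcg
DLGAP4 intron, chr20:36384093-36384292: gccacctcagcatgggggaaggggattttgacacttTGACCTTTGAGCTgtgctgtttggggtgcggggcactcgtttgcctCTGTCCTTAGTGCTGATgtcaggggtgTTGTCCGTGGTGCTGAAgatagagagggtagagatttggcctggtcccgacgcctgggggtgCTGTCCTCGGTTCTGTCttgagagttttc
upstream of AMBP, chr9:114082212-114082411: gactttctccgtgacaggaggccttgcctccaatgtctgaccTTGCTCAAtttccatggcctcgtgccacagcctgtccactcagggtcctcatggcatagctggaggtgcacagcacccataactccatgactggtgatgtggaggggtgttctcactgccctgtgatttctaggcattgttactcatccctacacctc
NUDC intron, chr1:26938311-26938510: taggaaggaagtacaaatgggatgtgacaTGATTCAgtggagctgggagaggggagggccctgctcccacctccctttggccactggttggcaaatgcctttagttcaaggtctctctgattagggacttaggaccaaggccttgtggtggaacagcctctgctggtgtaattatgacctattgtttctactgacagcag

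The SYT7 intron window held 1 exact RE1 and 2 matches with up to 1 letter off, and the UNC5A window held 2 and 3. The DLGAP4 window held no exact RE1 but 3 matches with 1 letter off, spaced along the same strand, beside a DR1 match, the repeat read by nuclear receptors. The ZFPM1 window matched HNF4, GATA and the GC box and no RE1. The window upstream of AMBP, the gene of a secreted plasma protein, held a C/EBP match, and the window in NUDC, upstream of the bile acid-regulated repressor gene NR0B2, held an AP-1 match. A match describes letters and is not evidence of binding.

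Distal HOT regions had a median of 42 lists, with quartiles of 35 and 52 and a maximum of 120. The plot of lists per region falls steeply, since 1824 regions (72.4%) had 31 to 50 lists, 375 had over 60 and 25 had over 100. Promoter HOT regions, the 7040 HOT regions within 500 bp of a TSS, had a median of 49 lists. At the edge of the rule, 151 distal regions had exactly 31 lists and a median length of 488 bp, while 166 had exactly 30 lists and a median length of 510 bp. On the distance side, 32 HOT regions lay less than 100 bp beyond the limit of 2 kb and 37 less than 100 bp inside it. A further 944 HOT regions lay between 500 bp and 2 kb from a TSS and belong to neither group.

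**Figure D1:**
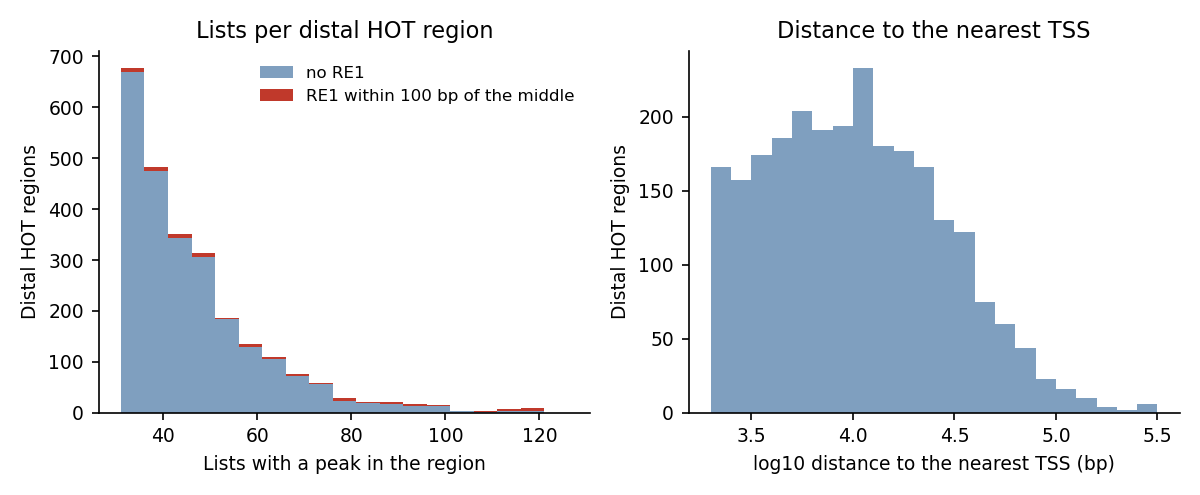
Left, number of distal HOT regions (vertical axis) by the number of lists with a peak (horizontal axis, bins of 5), with regions holding an exact RE1 in red. Right, number of regions by log10 distance to the nearest TSS in bp; the median distance was 9885 bp, and both plots show values that the rule used.

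Their median length was 606 bp (quartiles 471 and 762), against 720 bp at promoter HOT regions, 304 bp at distal regions of 6 to 30 lists and 100 bp at distal regions of 1 to 5 lists. Length follows list number in part, since regions were made by merging. The median distance to the nearest TSS was 9885 bp, 1248 regions (49.5%) were over 10 kb from every TSS, and 165 were over 50 kb away. Introns held 1281 of them (50.8%, 95% Wilson interval 48.9 to 52.8), exons 169 (6.71%) and the space between genes 1070 (42.5%). Distal regions of 6 to 30 lists, the closest comparison, lay in introns in 54.6% of cases and between genes in 39.2%.

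The 10 most bound regions had 117 to 120 lists, and 6 of them held an exact RE1. The region in an intron of ZFPM1, a cofactor of GATA factors, had 120 lists and was missed by HMGN3 alone. Regions in introns of SYT7, a calcium sensor of secretory vesicles, and of UNC5A, a netrin receptor of neurons, had 119 lists each. Regions in introns of the lncRNA gene ITFG2-AS1, of VRK3 and of DLGAP4 had 118. So did 1 between genes, 98738 bp from the TSS of LHX2, and 1 in an lncRNA intron whose nearest protein-coding TSS was that of MVB12B. Regions 2102 bp from the TSS of LIN28A, an RNA-binding protein of early development, and 4170 bp from that of NKX1-1 had 117. HMGN3 lacked a peak in 10 of these 10 regions, ZNF148 in 8, and PEG3 and TRIM24 in 4 each.

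Peaks at these regions were among the highest of most lists. At ZFPM1 the rank percentile of signal within a list ran from 69.8 in ZNF148 through a median of 99.8 to 100, and 118 of 120 lists had it at 90 or above. At UNC5A it had a median of 99.7 and was lowest in NFIB, at 19.7, with 113 of 119 lists at 90 or above. The regions shown near liver genes had far fewer lists and lower percentiles. Upstream of AMBP 48 lists gave a range of 2.20 to 95.5 with a median of 63.6 and 6 lists at 90 or above. In NUDC 42 lists gave 6.35 to 98.3 with a median of 82.6 and 14 lists at 90 or above. List number and nearness to a liver gene differ together here, and the part of either was not tested. Regions of over 100 lists must by the rule hold most lists, and the 5 shortest lists differed in how many of these 25 regions they reached. SCMH1, a Polycomb protein with 195 peaks in all, had a peak in 20, CENPX with 240 peaks in 12, ZBTB22 with 297 peaks in 19, ZNF853 with 489 peaks in 11 and ZNF439 with 555 peaks in 23.

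Regions of over 100 lists differed in form from the rest. Their median length was 173 bp, against 687 bp at 61 to 80 lists and 583 bp at 31 to 40 lists. An exact RE1 lay within 100 bp of the middle of 12 of these 25 regions (48.0%), and the share was 13.3% at 81 to 100 lists, 6.18% at 61 to 80, 2.23% at 41 to 60 and 1.21% at 31 to 40. With up to 1 letter off, 17 of the 25 held one. The motif was often repeated: within 500 bp of the middle, 13 of the 25 regions held at least 2 matches with up to 1 letter off, and the VRK3 region held 5. That was so for 4 of 75 regions of 81 to 100 lists, 1 of 275 regions of 61 to 80 and 7 of 2145 regions of 31 to 60. Over all distal HOT regions, 25 (0.992%) held at least 2 such matches, against 0.125% of distal regions of 6 to 30 lists. The difference within autosomes was 0.854 ± 1.03 percentage points (SD over 22 autosomes), higher in 13 and lower in 3 (two-sided sign-flip permutation test, p = 0.00071). Since the list number fixed these bins, the trend over them is a description, and the counts with 1 letter off were added after the data were seen. The test on repeated matches includes the regions of over 100 lists in which they were seen, so it is a description too. At 31 to 60 lists the share with at least 2 matches was 0.326%. Whether short repeats or reads that map to several places have a part in these regions was not tested.

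EP300, whose list took no part in choosing the regions, had a peak at 1870 of the 2520 distal HOT regions (74.2%, interval 72.5 to 75.9). It had one at 43.8% of promoter HOT regions, 36.0% of distal regions of 6 to 30 lists and 2.18% of distal regions of 1 to 5 lists. Within autosomes the share at distal HOT regions was 37.7 ± 7.95 percentage points above that at distal regions of 6 to 30 lists (adjusted p = 1.2e-05) and 33.6 ± 10.6 points above that at promoter HOT regions (adjusted p = 3e-05), higher in 22 of 22 autosomes in both (SD over autosomes, two-sided sign-flip permutation test, adjusted over the 6 lists). The distal groups were set apart by list number, and the EP300 share at distal regions rose with it. That share was 27.9% at 6 to 15 lists and 57.1% at 16 to 30 lists. The difference between the distal groups is therefore a description, and the part of list number in it was not tested. Longer regions are easier to hit, so the count was repeated with an EP300 peak middle within 100 bp of the region middle: the shares were then 46.0% at distal HOT, 22% at promoter HOT and 29.8% at the other distal regions, and the differences were 27.4 points from promoters and 16.9 from distal regions of 6 to 30 lists, both past the test. Among regions of at least 61 lists the EP300 difference from promoter HOT regions was 11.7 ± 21 points and did not pass the test (permutation test, adjusted p = 0.05). With only peaks of the highest score the differences were 11.5 points from distal regions of 6 to 30 lists and 10.3 points from promoters, both past the test.

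The other 5 non-preferred lists gave other patterns. Against promoter HOT regions 2 of 6 lists (33.3%) were higher at distal HOT regions by the same test and 1 of 6 (16.7%) was lower. All 6 (100%) were higher at distal HOT regions than at distal regions of 6 to 30 lists. Those distal groups were set apart by list number, so this last count is a description, as it was for EP300. Against distal regions of 6 to 30 lists, ZNF431 gained 51.1 points and TSC22D2 41.7 points, more than the 37.7 points of EP300. TUT4, ZZZ3 and GPBP1L1 gained less than EP300. The shares of all these lists but GPBP1L1 rose with list number at distal regions, so the gain was not particular to EP300. ZZZ3, a subunit of the ATAC acetyltransferase complex, was at 38.2% of distal HOT and 54.3% of promoter HOT regions, a difference of -17.7 ± 8.33 points, lower in 22 of 22 autosomes (permutation test, adjusted p = 3e-05). The zinc finger ZNF431 was at 63.3% and 59.1%, 5.30 ± 6.92 points higher (permutation test, adjusted p = 0.0043). TSC22D2 (54.7% and 55.0%, adjusted p = 0.45) and TUT4, a uridylyltransferase of RNA (39.8% and 36.3%, adjusted p = 0.083), did not pass the permutation test. GPBP1L1 has 73 peaks in all, of which 6 distal HOT regions held one. Of the 2520 regions 86 (3.41%) held none of the 6 lists, against 48.0% of distal regions of 6 to 30 lists.

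**Figure D2:**
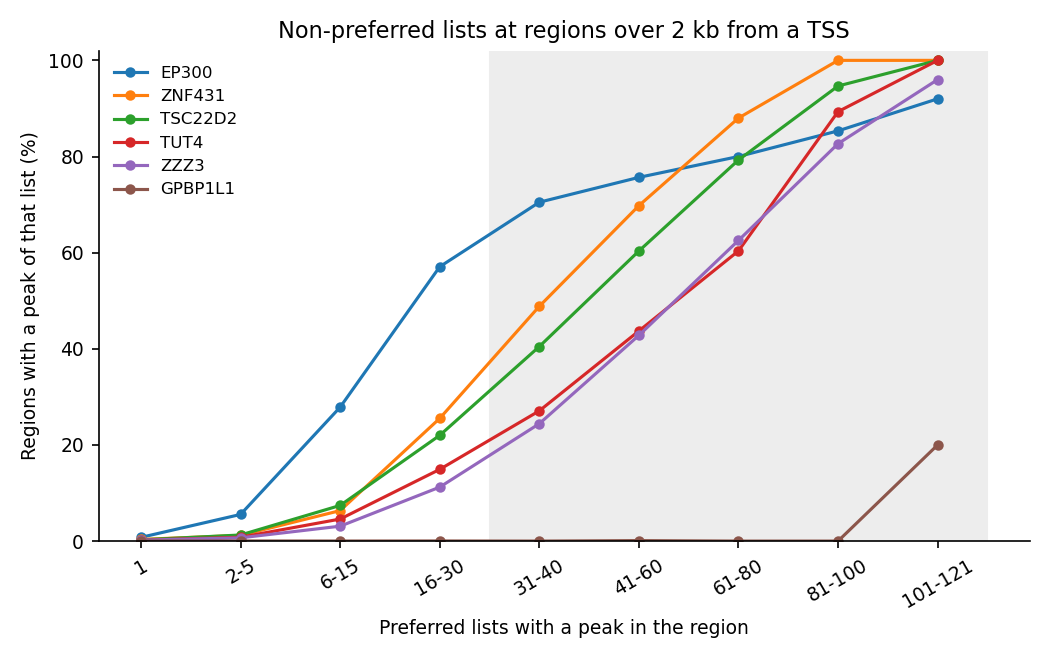
Percent of regions over 2 kb from a TSS with a peak of each non-preferred list (vertical axis) by the number of preferred lists there (horizontal axis), with distal HOT bins on grey. EP300 was at 57.1% of regions of 16 to 30 lists and at 70.5% of regions of 31 to 40, where the other lists were at 48.8% or less.

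The distal HOT regions without EP300 were richer in GC and in RE1. GC over 200 bp averaged 54.4 ± 8.37% (SD over regions) in the 1870 regions with EP300 and 60.7 ± 8.45% in the 650 without, a difference of -6.14 ± 3.82 points over 22 autosomes (sign-flip permutation test, p = 1e-05, the smallest it can give). C/EBP matches were in 6.20% of regions with EP300 and 0.769% without (permutation test, adjusted p = 0.00021), and forkhead matches in 9.73% and 3.54% (adjusted p = 0.0043). RE1 went the other way, with 1.44% and 7.38% (permutation test, adjusted p = 0.00042), as did the CTCF motif with 0.802% and 4.46% (adjusted p = 0.042). Of the 21 motifs 2 (9.52%) were thus higher with EP300 and 2 (9.52%) lower. AP-1, with 11.1% and 3.69%, did not pass (adjusted p = 0.058, permutation test). The part of GC in these motif differences was not tested.

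The 75 distal HOT regions with an exact RE1 had a median of 63 lists and the 2445 others 42. EP300 was at 36.0% of the former and 75.4% of the latter, a difference of -34.9 ± 31.2 points over the 19 autosomes that hold both (sign-flip permutation test, adjusted p = 0.00062). TUT4 was at 97.3% and 38.0%, and TSC22D2 at 100% and 53.3%, each higher in 19 of 19 autosomes (permutation test, adjusted p = 6e-05). ZNF431 was at 86.7% and 62.6% (permutation test, adjusted p = 0.0034), and ZZZ3 was at 38.7% and 38.2% (adjusted p = 0.33). Of the 25 regions of over 100 lists 12 held an exact RE1, and EP300 was at 92.0% of the 25, SYT7 and UNC5A included. A low EP300 share was thus not a trait of the most bound RE1 regions. List number also differed between the groups with and without RE1, and its part in these differences was not tested.

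The sequence of distal HOT regions lay between that of promoters and that of other distal regions in GC. It averaged 56.1 ± 8.83% GC in distal HOT, 66.6 ± 7.29% in promoter HOT and 52.5 ± 8.47% in distal regions of 6 to 30 lists. Within autosomes distal HOT regions were 10.6 points below promoter HOT (difference -10.6 ± 2.11, lower in 22 of 22) and 3.80 ± 1.42 points above distal regions of 6 to 30 lists (higher in 22 of 22), each with p = 1e-05 in the sign-flip permutation test. The median ratio of observed to expected CpG was 0.306, against 0.842 at promoter HOT and 0.252 at distal regions of 6 to 30 lists.

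Matches to 11 motifs of distal elements and 8 of promoters were counted, beside RE1 and CTCF. At least 1 of the distal motifs was in 26.9% of distal HOT, 6.53% of promoter HOT and 29.7% of distal regions of 6 to 30 lists. At least 1 of the promoter motifs, the E-box among them, was in 13.6%, 28.1% and 9.24%. The letters searched on both strands were TGANTCA for AP-1, TGTTTAC for forkhead, TTGCNCAA for C/EBP, CAAAGTCCA for HNF4, AGATAAG for GATA, ACATTCCA for TEAD, ATGCAAAT for the octamer, TGATTGACA for PBX-MEIS, CACGTG for the E-box, CCGGAAGT for ETS, GGGGCGGGG for the GC box, GCGCATGCG for NRF1, AAGATGGCG for YY1, AGCCAAT for the CCAAT box, TGACGTCA for CRE and ACTACAATT for SIX5-ZNF143. RE1, CTCF and NFI were searched by their longer patterns without mismatch, and HNF1 and DR1 with up to 1 letter off. HNF4 and DR1 overlap in part.

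Against promoter HOT regions, 9 of 21 motifs (42.9%) were higher at distal HOT regions and 6 (28.6%) lower (sign-flip permutation test over 22 autosomes, adjusted over the 21). AP-1 was in 9.17% of distal HOT and 2.36% of promoter HOT regions, and forkhead in 8.13% and 1.39%, each higher in 22 of 22 autosomes. C/EBP was in 4.80% and 1.12%, GATA in 3.73% and 0.540%, HNF4 in 1.59% and 0.312%, TEAD in 1.19% and 0.241%, and NFI in 0.794% and 0.114%. RE1 (2.98% and 0.511%) and CTCF, the insulator motif (1.75% and 0.369%), were the other 2 that were higher. The GC box was in 2.26% and 10.4%, ETS in 0.437% and 5.34%, YY1 in 0.0794% and 2.30%, NRF1 in 0.198% and 2.14%, CRE in 0.198% and 1.63%, and the CCAAT box in 2.30% and 3.55%, all lower. The E-box was in 8.29% and 7.64% (permutation test, adjusted p = 0.46). At 61 or more lists 2 motifs were higher and 4 lower, and with only peaks of the highest score 5 and 6. Distal HOT regions differed in GC from both comparison groups, and its part in the motif shares was not tested.

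Against distal regions of 6 to 30 lists few motifs differed, 2 of 21 (9.52%) higher and 2 (9.52%) lower by the same test. RE1 was in 2.98% and 0.689%, a difference of 2.52 ± 2.54 points that was higher in 18 of 22 autosomes (permutation test, adjusted p = 0.00042). The E-box was in 8.29% and 5.62% and higher in 20 of 22 (adjusted p = 0.0075, permutation test). CTCF was in 1.75% and 3.39% (permutation test, adjusted p = 0.026), and HNF1 was in 0.437% and 0.775% (adjusted p = 0.013), both lower. AP-1 (9.17% and 10.8%, adjusted p = 0.7), forkhead (8.13% and 8.28%, adjusted p = 0.75) and C/EBP (4.80% in both, adjusted p = 0.7) did not pass the permutation test. The balance depended on the definition: 2 motifs were higher and 8 lower at 61 or more lists, 2 and 7 with only peaks of the highest score, and 1 and 1 with whole peaks. With TF lists alone 2 motifs passed, both higher. There HOT began at 27 lists and the comparison regions ended below that.

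Within the regions themselves, matches were set against windows of the same length 1 kb to either side. The middle held more matches for 10 of 21 motifs (47.6%; sign-flip permutation test). Forkhead was in 8.13% of middles and 2.04% of flanks, the E-box in 8.29% and 2.90%, AP-1 in 9.17% and 5.83%, CTCF in 1.75% and 0.139%, and RE1 in 2.98% and 0.0595%. RE1 also sat close to the middle: 81.2% of its 80 exact matches were within 25 bp of it, where an even spread would give 27.2%. For AP-1 that share was 27.5% of 247 matches, where an even spread would give 25.8%. Among the motifs measured it was highest after RE1 for TEAD (41.9% of 31 matches) and the CCAAT box (37.9% of 58). It was below an even spread for forkhead (22.4%) and CTCF (22.2%). These shares were not tested. No motif of the 21 was found in most regions: 40.7% of distal HOT regions held at least 1.

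**Figure D3:**
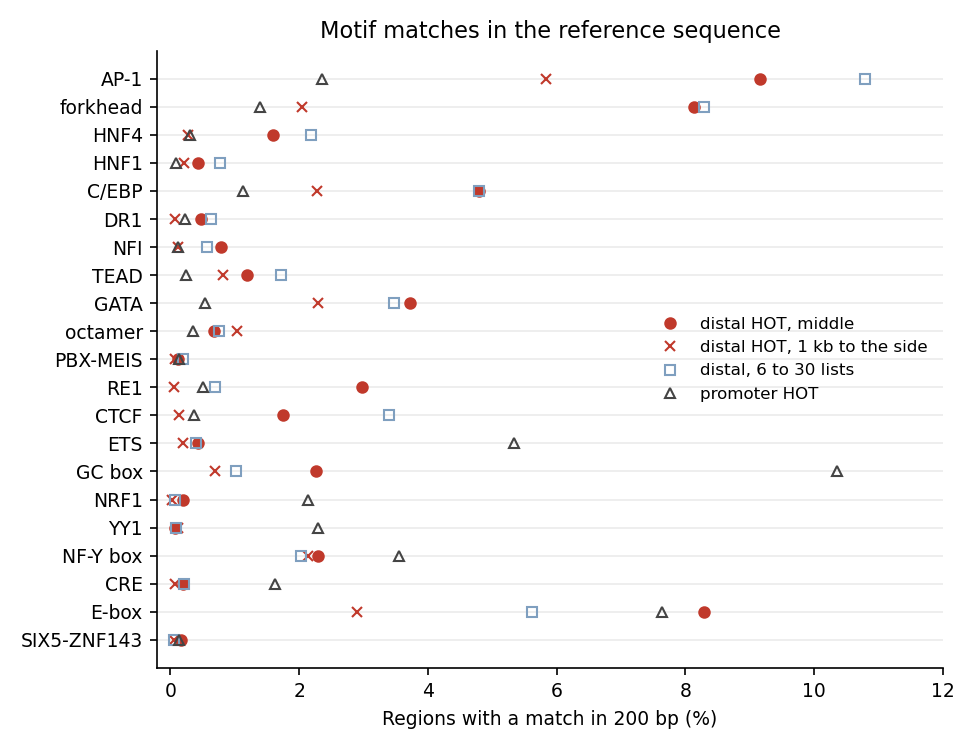
Percent of regions with a match in the 200 bp around the middle (horizontal axis) for 21 motifs (vertical axis; NF-Y box is the CCAAT box), in distal HOT regions, their flanks 1 kb away, distal regions of 6 to 30 lists and promoter HOT regions. RE1 stands at 2.98% in distal HOT regions and at 0.689% or less in the other 3 sets.

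Individual DAPs took very unequal parts in the distal HOT regions. The share of regions with a peak ran from 1.03% for CENPX (26 regions) through a median of 34.9% to 99% for SALL1, and 37 lists covered over 50%. The highest shares after the zinc finger SALL1 were those of ZBTB12 (97.5%), the octamer-binding POU2F1 (97.1%), E2F8 (92.2%), ZMYM4 (91.3%) and the nuclear receptor coactivator NCOA2 (89.2%). The lowest after CENPX were SCMH1 (1.15%), ZNF853 (1.31%), ZBTB22 (1.63%), YBX3 (1.98%) and ZUP1 (2.30%). These shares follow list length in part, since SALL1 has 61748 peaks and CENPX 240. Seen from the lists, a median of 11.1% of a list's peaks lay in distal HOT regions, from 4.92% in ZNF865 to 20.7% in ZNF140.

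The preferred lists chose the regions, so their shares at distal and promoter HOT regions are a description, which supports nothing on its own. Of these lists 26 (21.5%) had a higher share at distal HOT regions and 75 (62%) a lower one, counted where the difference over 22 autosomes passed the sign-flip threshold. These counts move with the list number: promoter HOT regions held a mean of 52.8 lists and distal HOT regions 46.2, and between regions of 31 to 50 lists the counts were 36 higher and 57 lower. Among regions of at least 61 lists they were 24 and 14, and with only peaks of the highest score 29 and 24. The gain was largest for HIC2, a repressor of the BTB family, with 71.7% of distal and 46.3% of promoter HOT regions, a difference within autosomes of 28.4 ± 10.6 points. TRIM24, a coregulator of nuclear receptors, was at 33.3% and 7.03%, and the homeodomain factor ZFHX3 at 45.9% and 20.7%. NCOA2 was at 89.2% and 65%, PEG3 at 52.5% and 30.5%, and ZMYM2, part of a corepressor complex, at 65.1% and 42.6%. FOSL1, an AP-1 subunit, was at 32.3% and 20.7%, and MEIS2 at 82.1% and 71.4%. ZNF219 (72.1% and 58.8%) and ZNF646 (37.5% and 24.3%) complete the 10 largest. In 22 of 22 autosomes the distal share was the higher one for the first 6 and for ZNF646.

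The largest losses were those of STAT5A, a cytokine-activated TF, with 37.7% of distal and 75.9% of promoter HOT regions (-39.6 ± 7.53 points), and of HES4, with 38.5% and 67.9% (-31.1 ± 7.51 points). ZNF704 was at 36.0% and 59.3%, SRY at 51.5% and 75.7%, and L3MBTL4, a reader of methylated histones, at 45.9% and 68.7%. ZNF235 (32.7% and 56.7%), ZNF593 (15.8% and 40.6%), ZNF790 (36.7% and 58.0%), ZNF85 (20.5% and 42.0%) and E4F1 (49.5% and 71.1%) complete the 10. Each was lower at distal HOT regions in 22 of 22 autosomes.

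**Figure D4:**
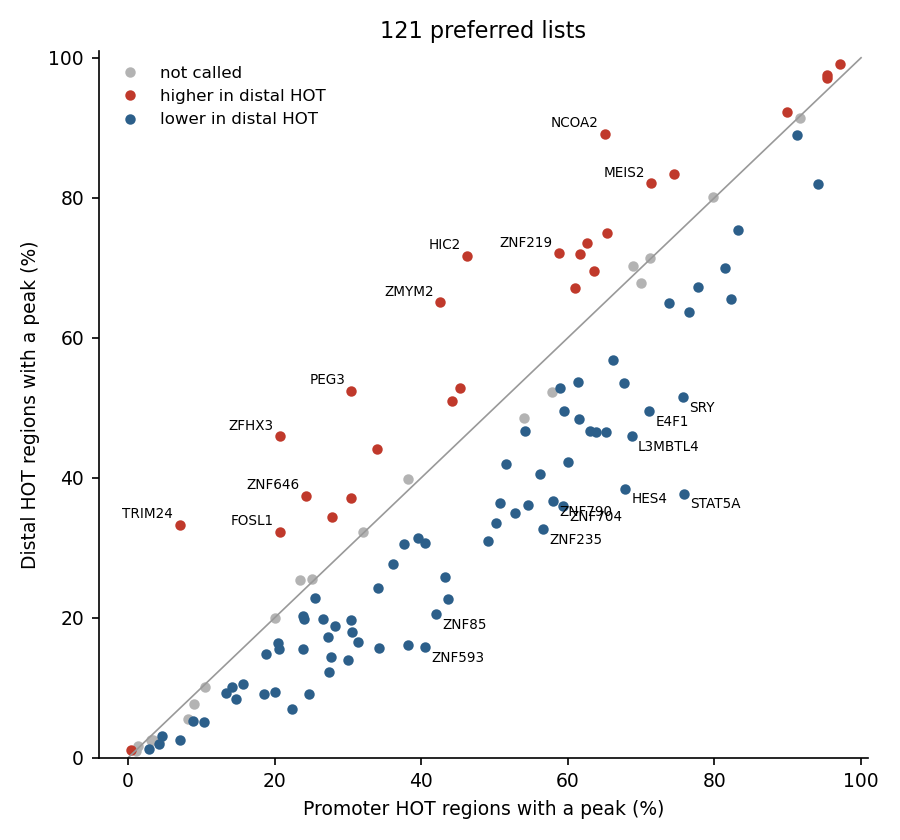
Percent of distal HOT regions with a peak (vertical axis) against the percent of promoter HOT regions with a peak (horizontal axis), 1 point a list, with the 10 largest differences each way labelled. NCOA2 lies at 89.2% against 65% above the line of equal shares and STAT5A at 37.7% against 75.9% below it.

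The counts by set are given beside the 21.5% of all preferred lists that were higher and the 62% that were lower, and their shares were not tested against these. Among 7 coactivator and Mediator lists 4 were higher at distal HOT regions (NCOA1, NCOA2, MED12 and TRIM24), 1 was lower and 2 were neither, with a median difference of 8.02 points where that of all preferred lists was -5.02. MED12 and MED13L, both of the kinase module of Mediator, went opposite ways: MED12 was at 83.4% of distal and 74.5% of promoter HOT regions, and MED13L at 16.1% and 38.2%. Of 16 TFs known from enhancers 5 were higher (FOSL1, MEIS1, MEIS2, POU2F1 and ZFHX3) and 9 lower, with a median difference of -4.39 points. Of 15 TFs known from promoters 1, E2F8, was higher and 11 were lower, with a median of -9.27 points; ELK4, an ETS factor, was at 6.98% and 22.4%, and THAP1 at 12.3% and 27.4%. Of 10 corepressor and chromatin lists 3 were higher (ZMYM2, SCMH1 and PRMT5) and 4 lower, with a median of -0.859 points. RCOR3, a CoREST protein, was at 64.9% and 73.8%, lower, while ZMYM4, at 91.3% and 91.6%, was neither.

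Within the lists, peaks in distal HOT regions had the higher signal on average, though lists went both ways. The median rank percentile of signal averaged 64.2 ± 8.15 over the preferred lists (SD) in distal HOT regions, 59.5 ± 7.60 in promoter HOT regions and 45.0 ± 6.45 in distal regions of 6 to 30 lists. The difference between distal and promoter HOT regions was 4.75 ± 9.69 percentile points, higher in 77 lists and lower in 44 (two-sided sign-flip permutation test over lists, p = 1e-05). It was widest for NCOA2 (81.3 and 43.2), SCMH1 (87.7 and 51.8, from 29 peaks in distal HOT regions), TRIM24 (69.2 and 39.6) and ZFHX3 (69.0 and 39.8), and lowest for L3MBTL4 (56.2 and 67.0) and E4F1 (59.0 and 69.4). With HOT set at 10% of lists the difference was 1.08 and did not pass (permutation test, p = 0.19), and without chromosomes 2, 6, 14, 16, 17 and 20 it was 9.04 and did. The lists chose these regions and share them, so they are not independent samples. The p-values over lists do not measure spread over regions or chromosomes. The share of a list's peaks that lay in distal HOT regions was 11.3 ± 2.90% (SD) over the TF lists and 12.0 ± 3.58% over the 15 non-TF DAPs, a difference of -0.714 points that did not pass a permutation test over lists (p = 0.39). With up to 500 peaks of highest signal a list, the difference was -4.92 points and did not pass either (permutation test, p = 0.09). The study's TF class also holds NCOA1 and NCOA2, counted above among coactivators.

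Of 20007 protein-coding genes 2693 (13.5%) had a distal HOT region within 50 kb of their canonical TSS, 703 had at least 2 and 95 at least 4. Among 16 genes of apolipoproteins and lipid transport 10 did (62.5%), with a median distance to the nearest region of 16069 bp where that of all genes was 410425 bp. These 10 genes stand for 4 loci and 9 distinct regions, since 8 of them lie in 2 clusters of neighbouring genes that share regions. APOC3, APOA4 and APOA1, which lie side by side and encode carriers of plasma lipid, shared 3 regions, of which the most bound (59 lists, EP300 among its peaks) lay in an intron of APOC3 at chr11:116832348-116832827. Among 21 liver TF genes 11 did (52.4%): FOXA1 and FOXA3, forkhead pioneer factors, and NR0B2 had 3 regions each, with 59 lists at 8049 bp upstream of the FOXA1 TSS and 68 lists at 18483 bp downstream of the FOXA3 TSS. Secreted plasma protein genes had one in 7 of 30 (23.3%), with 3 regions at AMBP and 3 shared by the neighbours AHSG and FETUB. These 7 genes stand for 5 loci and 9 distinct regions. Metabolic enzyme genes had one in 7 of 27 (25.9%), with 3 regions at PCK1 and 2 at G6PC1, both of gluconeogenesis. The median distance was 36265 bp for the liver TF genes, 207581 bp for the metabolic enzyme genes and 384042 bp for the plasma protein genes.

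Other gene lists also had members with such regions. Growth and stress genes had one in 7 of 20 (35.0%), with 3 regions at CCN2, a target of the Hippo pathway, and 2 at CDKN1A, the p21 cell cycle inhibitor, where the most bound had 58 lists. Genes of other tissues had one in 7 of 20 (35.0%) too, among them the sperm protamine gene PRM1 with 6 regions, of which the most bound (53 lists) lay in an intron of its neighbour RMI2. Housekeeping genes had one in 3 of 20 (15%), near the 13.5% of all genes. The median distance was 104090 bp for genes of other tissues, 288360 bp for growth and stress genes and 824482 bp for housekeeping genes. The windows give 1189 genes at 20 kb and 4437 at 100 kb. Nearness does not say which gene a region acts on. The genes with most regions overall were RMI2 with 9, and SECTM1, CBX8, CD7, CBX2 and COX4I2 with 8 each.

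Most distal HOT regions stood alone. Regions were joined in groups where the gap was short, the widest gap joined being 12470 bp and the narrowest not joined 12697 bp. By this 1795 regions (71.2%) were single and 86 groups held 3 or more, 311 regions in all. The largest had 7 regions over 26952 bp at chr20:17856108-17883059, with 33 to 87 lists each and no protein-coding TSS within 50 kb, and EP300 was at 5 of the 7. Another 8 groups had 6 regions. One spanned ID1, an inhibitor of bHLH factors, at chr20:31587854-31623293 with 32 to 91 lists, and one ran from within HNF4A, the nuclear receptor of hepatocytes, to just past its end, at chr20:44410749-44435011 with 33 to 53 lists and EP300 at 6 of 6 regions. Further groups of 6 lay near JPH4, near ZFP36L2, within TTBK1, and at chr2:120525262-120565057 and chr20:50388764-50416091, of which the last 2 had no protein-coding TSS within 50 kb. Of these 9 groups 4 were on chromosome 20.

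The regions were unevenly spread over chromosomes. Chromosome 20 held 274, or 4.25 per Mb, chromosome 17 held 265 (3.18 per Mb) and chromosome 16 held 243 (2.69 per Mb), while chromosome 13 held 17 (0.149 per Mb) and X held 4. A measure that allows for the number of bound regions is the share of distal regions of 6 or more lists that were HOT. It was 20.8% on chromosome 17 (95% Wilson interval 18.7 to 23.2), 20.3% on 20 and 19.8% on 16, against 9.83% on chromosome 3 (8.04 to 12.0) and 6.69% on 13 (4.22 to 10.5). On X it was 4 of 150 (2.67%). The same share at promoters was 45.1% to 54.5% on chromosomes 2, 6, 14, 16, 17 and 20 and 34.1% to 43.8% on the other 16 autosomes, with no overlap, and 3.67% on X. These 6 chromosomes, grouped after their values were seen, held 1428 of the distal HOT regions (56.7%) at 1.88 per Mb, against 0.514 per Mb on the other 16. Their distal shares overlap with the rest, since chromosome 19 reached 18.1% and chromosome 14 was at 14.7%.

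The same share was taken within 3 of the 6 chromosomes grouped after their values were seen, at the cut points given here only. The intervals cover counting error and neighbouring regions are not independent, so their overlap or lack of it is no test. On chromosome 17 the part below 40 Mb held 47 regions, 14.8% of its distal regions of 6 or more lists (95% Wilson interval 11.3 to 19.2). The part above held 218, 22.9% (20.3 to 25.6), without overlap of the intervals. On chromosome 14 the part below 40 Mb had 18.2% (14.4 to 22.8) and the part above 12.0% (9.21 to 15.5), with overlapping intervals. On chromosome 6 the part below 60 Mb had 18.3% (15.7 to 21.1) and the part above 14.8% (12.1 to 18), which also overlapped. Regions of a single list moved with these values, from 141 per Mb on chromosome 20 to 14.7 on 13 and 10.1 on X. HepG2 is known to carry extra copies of several chromosomes, copy number was not measured here, and its part in the spread was not tested. The share of distal HOT regions with EP300 ran from 68.3% to 75.2% over the 6 chromosomes and from 64.7% to 90% over the other 16. Without the 6 chromosomes, EP300 was 35.8 points above distal regions of 6 to 30 lists and 38.8 points above promoter HOT regions (sign-flip permutation test over 16 autosomes, adjusted p = 3.6e-05 and 6e-05). Leaving these chromosomes out is no test of copy number, which was not measured on the others either.

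**Figure D5:**
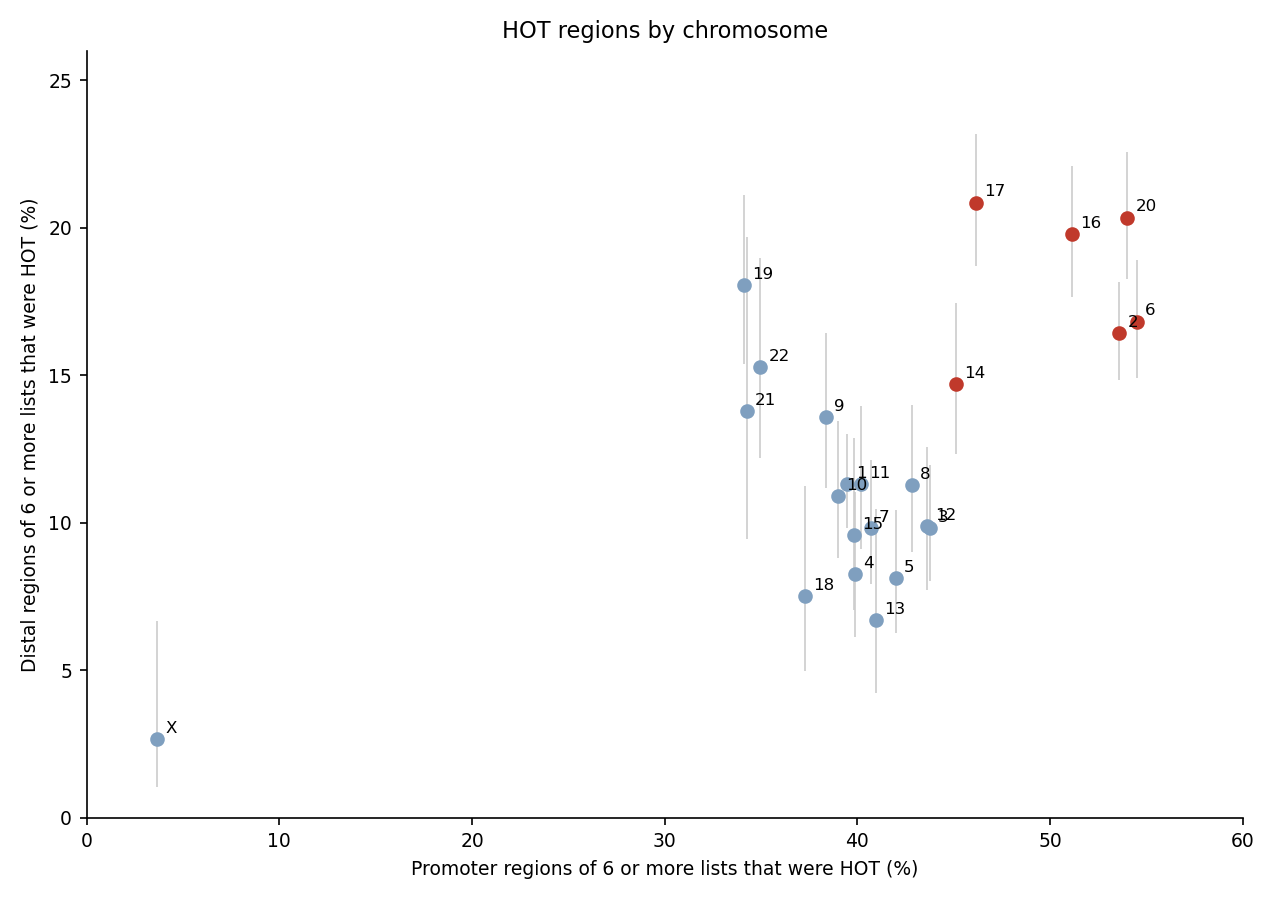
Percent of distal regions of 6 or more lists that were HOT (vertical axis, bars are 95% Wilson intervals) against the same percent for regions within 500 bp of a TSS (horizontal axis), 1 point a chromosome. Chromosomes 2, 6, 14, 16, 17 and 20, in red, lie at 45.1% or above on the horizontal axis and the other autosomes at 43.8% or below.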

How the data were processed

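Peak lists of HepG2 for 127 FLAG-tagged DAPs were examined, 121 preferred and 6 not, with classes and preference taken from the labels and the study's supplementary table. The authors made each list with the ENCODE pipeline on hg38 against an input library. The sources used here name no aligner, peak caller or version. The deposited score (540 to 1000) served as a filter in 1 alternative. The deposited signal is not scaled between lists and was ranked within each. The deposited q column, treated as a score, and the summit offset served only in checks and alternatives. Depth is unknown, and replicates are not listed apart.

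Members and lists were chosen with earlier results of these data known. The rule for names took the 10 regions with the most lists, the 6 DAPs with the highest and the 6 with the lowest share, the 10 with the largest difference each way, the 3 genes a list with the most regions, and the 6 largest groups, here 9 because of ties, of which 1 is not reported here. Short lists, signal extremes, the genes with most regions overall and the chromosomes set apart were chosen after their values were seen. Regions are not replicates, so the difference within each of 22 autosomes entered a two-sided sign-flip permutation test of 100000 resamples; other tests permute lists. Adjusted p-values are Benjamini-Hochberg, called at 0.05. Calculations were tested on simulated data in Python 3.11.15, numpy 2.4.6, pandas 2.3.3 and scipy 1.17.1. Alternatives changed merging, list minimum, distance, score and lists. Chromatin and expression data were not analysed here.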

Additional observations from a re-analysis of the deposited data

How the results depend on the processing

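Alternatives kept the direction of every tested difference in GC, EP300 and signal. GC against promoter HOT regions ran from -12.4 to -7.65 points and against the other distal regions from 1.44 to 7.22, all past the test. These other distal regions had 6 to 30 lists, but ended below the list minimum of HOT where that was under 31. The 1.44 comes from 10% of lists, where the minimum was 13, so it is not a like contrast. Main values that moved depend mostly on the definition. With 10% of lists there were 8577 distal HOT regions, 36.8% of HOT regions, 53.9% in introns, near 6303 genes and in 489 groups of 3 or more, and the signal difference was 1.08 (permutation test, p = 0.19). With 50% of lists there were 375, 14.6%, 46.7%, 484 genes and 4 groups, with 38 DAPs, 6 motifs against promoters and 10 against other distal regions, and the EP300 difference from promoters was 11.7 points (permutation test, adjusted p = 0.05). With only peaks of score 1000 there were 472 regions, 19.9%, 550 genes and 4 groups, with 53 DAPs and 9 motifs against other distal regions. The distal share was 28.2% beyond 1 kb, 17.5% beyond 5 kb (1757 genes, 55 groups), 30.6% with canonical transcripts only, 24.9% with whole peaks, 22.8% with TF lists and 22.6% without the 5 longest lists. Motifs against other distal regions numbered 2 with whole peaks and with TF lists. Genes were 1189 at 20 kb and 4437 at 100 kb, and groups 39 at a gap of 5 kb and 133 at 25 kb. Otherwise the cause of a change was not tested. Settings on EP300 peak middles, on chromosomes left out and, for EP300 and signal, on 31 to 50 lists were chosen after seeing the data.

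Intervals cover counting error only, and neighbouring regions are not independent. Each DAP has 1 list, so replicates of a DAP could not be compared. The depth behind each list is unknown, so the lack of a peak cannot be told from low coverage. Merging ties the length of a region to its list number.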
